A study of Mus musculus with 18 samples.

Results

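The genes described here encode the transforming growth factor beta (TGF-beta) and bone morphogenetic protein (BMP) system of the mouse ovary. They were chosen by name, as every probe set on either of 2 oligonucleotide chip types, A and B, whose single annotated symbol starts with Tgfb, Bmp, Smad, Acvr, Gdf or Ltbp, or is Id followed by a final digit from 1 to 4. Gdf9, an oocyte growth factor, was left out by that rule. This gave 43 of 13179 probe sets, 29 on chip A and the other 14 on chip B, for 36 of the 6137 genes with a probe set of a single symbol, and 7 of the 36 have several probe sets. By role there were 12 probe sets for ligands, 2 for the family named for binding latent TGF-beta (Ltbp), 12 for receptors, 6 for Smads, 6 for Id factors and 5 for other symbols that the rule matched.

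RNA came from whole ovaries of wild-type mice and of mice that carry the LHCTP transgene and hypersecrete luteinizing hormone (LH), the pituitary hormone that drives ovulation and luteal steroid output. The labels describe cystic ovaries in the transgenic CF-1 mouse and in the transgenic CF-1xC57BL/6 F1 hybrid at 2 months. At 5 months they describe a granulosa cell tumour in CF-1 and a luteoma in the hybrid, and a luteoma also in a CF-1 transgenic ovary given human chorionic gonadotropin (hCG), which acts through the LH receptor. Wild-type ovaries of both strains at both ages complete the 9 conditions, each with 1 array of each chip type, 18 arrays in all. The promoter that drives the transgene, the number of animals behind a sample and the hCG dose are not given in the sources used here. One label of the tumour's chip B array gives 2 months, against its title and source, which were followed.

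TGF-beta family ligands are secreted dimers, many of them freed from a latent form outside the cell. They bring together type I and type II receptor kinases, which phosphorylate receptor-regulated Smads. These enter the nucleus with Smad4 and switch genes on or off, and the Id genes, whose products block basic helix-loop-helix transcription factors, are classical targets of the BMP branch. In the ovary activins, inhibins, BMPs and TGF-betas pass between oocyte, granulosa and theca cells and tune follicle growth and steroid output.

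Promoter windows of Id2, Id3 and Tgfbi are shown, which are among the members that stood lowest or highest in the tumour. Each runs from 250 bases before to 50 after a RefSeq start site on mouse assembly GRCm38.p6, and capitals mark CAGAC (read on the other strand as GTCTG), a Smad-binding box, and the palindrome GGCGCC, described for BMP Smads. The Id2 window at chr12:25096043-25096342, minus strand, held 1 GGCGCC and no CAGAC. The Id3 window at chr4:136143572-136143871, plus strand, held 2 CAGAC boxes, and the Tgfbi window at chr13:56609336-56609635, plus strand, held 2 CAGAC boxes and 1 GGCGCC. Smad1 was also lowest in the tumour, and its window at chr8:79399379-79399678, minus strand, held no CAGAC and no GGCGCC and is not shown.
Id2: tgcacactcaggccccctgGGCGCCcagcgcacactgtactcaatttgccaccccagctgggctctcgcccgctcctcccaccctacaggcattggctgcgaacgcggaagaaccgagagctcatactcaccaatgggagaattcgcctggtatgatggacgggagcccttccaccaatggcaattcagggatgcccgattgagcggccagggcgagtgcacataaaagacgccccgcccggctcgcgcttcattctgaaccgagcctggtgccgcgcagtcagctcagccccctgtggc
Id3: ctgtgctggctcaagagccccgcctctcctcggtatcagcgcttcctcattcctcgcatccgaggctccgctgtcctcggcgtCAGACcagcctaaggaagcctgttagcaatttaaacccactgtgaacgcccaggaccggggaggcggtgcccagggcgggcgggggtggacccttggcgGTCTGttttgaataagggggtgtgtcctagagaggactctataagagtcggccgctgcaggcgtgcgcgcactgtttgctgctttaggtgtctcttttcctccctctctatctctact
Tgfbi: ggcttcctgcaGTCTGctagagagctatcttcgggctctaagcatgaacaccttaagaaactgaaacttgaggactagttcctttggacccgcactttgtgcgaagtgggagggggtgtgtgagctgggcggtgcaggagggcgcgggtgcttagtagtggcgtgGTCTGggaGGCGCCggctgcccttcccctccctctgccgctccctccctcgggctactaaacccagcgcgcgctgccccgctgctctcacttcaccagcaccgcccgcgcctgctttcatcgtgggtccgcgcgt
The table used here held 30 such windows for 25 of the member genes. CAGAC was found on either strand in 16 of the 30, against 49.6% of all 32851 windows, and GGCGCC in 10 of the 30, against 11.9%. A match describes the letters only, and windows of 1 gene can overlap.

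Levels below are intensities scaled to a common trimmed mean within each chip type, in arbitrary units, and are comparable only within a probe set. A value of at least 367.6 units on chip A or 581.4 on chip B was taken as the detection limit, 2 times a floor to which lower values were raised before log2. Of the 43 probe sets, 20 reached the limit on at least 2 of the 9 arrays and were tested (15 from chip A, 5 from chip B), for 18 of the 36 genes. None of these 20 fell under the floor on any array, and 13 stood at or above the limit on all 9. The other 23 probe sets ran from -325 to 463 units, 13 of them under the floor on every array, and 22 reached the limit on 0 arrays. These 23 were not tested, which leaves 18 genes of the system without a tested probe set.

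Arrays differed in ways the groups do not explain. Before scaling, trimmed means lay between 907 and 1756 units (chip A) and between 542 and 921 (chip B). The ratio of 5′ to 3′ actin signal, a sign of RNA length, lay between 0.36 and 0.668 (chip A) and between 0.337 and 0.579 (chip B). On both chips the hybrid wild type of 2 months had the lowest such ratio, and that of 5 months had the highest on chip A. The CF-1 wild type, the tumour and the hybrid luteoma, 3 of the 4 untreated conditions at 5 months, shared a control profile. All 3 lay beyond the other 6 arrays in 4 of 15 opposite-strand control probe sets on chip A and in 5 of 15 on chip B. For BioDn-5 on chip A they read 768 to 812 units against 194 to 387 elsewhere.

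The samples were checked against markers of ovarian cells. Summed granulosa markers read 74224 units in the tumour against 34520 to 54326 on the other arrays, while Wt1 and Amh, both on that list, were at their lowest there. The list also holds Inhba and Inhbb, activin subunit genes whose high tumour levels are given below. This sum is therefore not independent of the pathway. Summed oocyte markers read 2064 units in the tumour against 3319 to 9484 elsewhere, with Zp1, Zp2 and Zp3, which encode the egg coat, under the floor. In whole ovaries fewer cells of a type and less RNA per cell cannot be told apart.

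**Figure D1:**
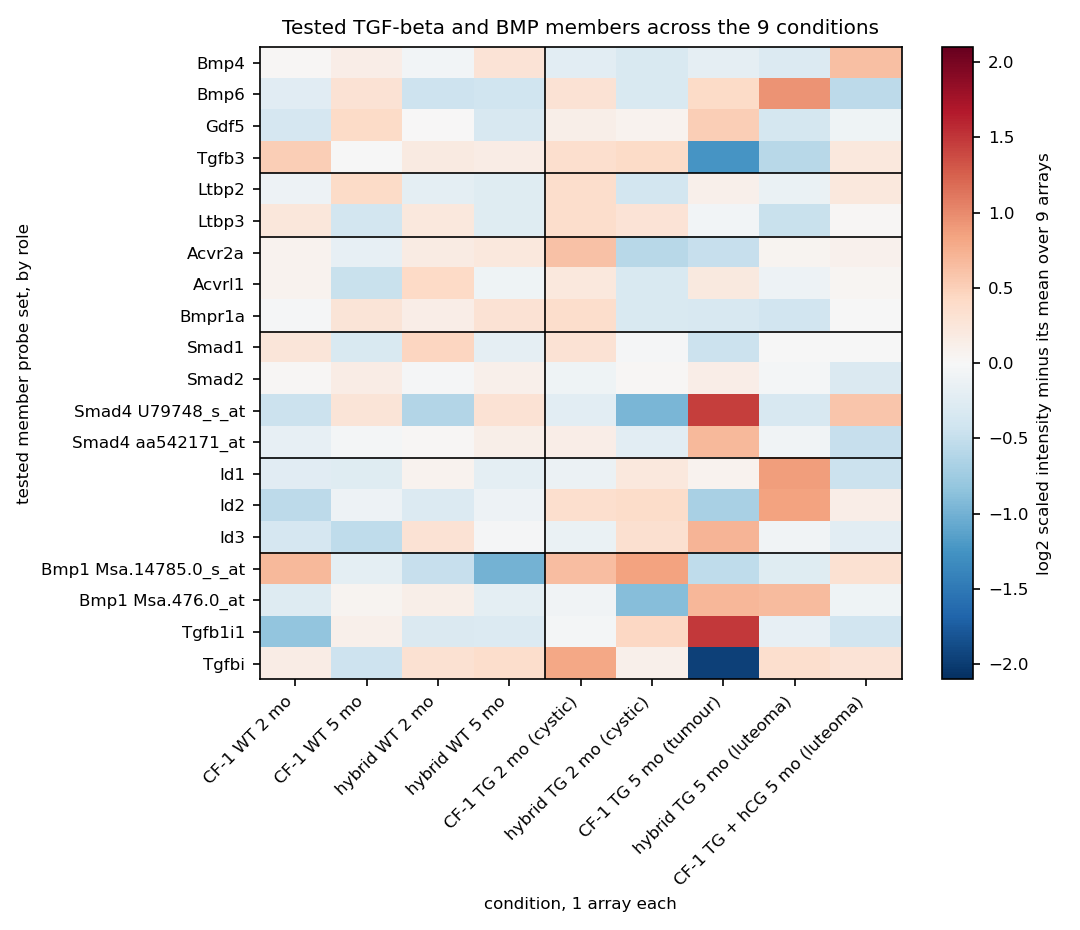
Level of each of the 20 tested probe sets on the 9 arrays, as the log2 scaled intensity minus the mean of that probe set over the arrays (colour scale, blue lower and red higher), with rows by role and columns by condition. The tumour column holds the deepest blue, for Tgfbi, and the deepest reds for Tgfb1i1 and a Smad4 probe set, while the hybrid luteoma column is red for Bmp6, Id1 and Id2.

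Across strain and age, no member passed the test for a difference between transgenic and wild-type ovaries, and no probe set of the whole table did. The test was limma's moderated fit with genotype, age and strain as terms, over the 8 untreated arrays, adjusted by Benjamini-Hochberg over 6408 probe sets (0.0% called). At an unadjusted p under 0.05, 1 of the 20 members was called against 10.0% of all probe sets. Transgenic lay on the same side of wild type in all 4 pairs for 4 of the 20 members, Bmp6, Id1 and Tgfb1i1 higher and Bmp4 lower, against 18.9% of all probe sets, so that the first share was below its background and the second, 20% of the members, close to its own. The median log2 difference was 0.10 over the members and 0.00 over all probe sets, and 12 of the 20 members spanned at least 2-fold over the 9 arrays, against 61.9%. Because each condition had 1 array, the p-values measure how single samples of unlike conditions scatter, not how animals of 1 condition do.

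Among the ligands, Bmp4 had the only unadjusted call for genotype. Bmp4, a BMP made by theca and stromal cells that restrains luteinization of granulosa cells, read 395 and 427 units in wild-type CF-1 at 2 and 5 months and 376 and 476 units in the hybrid. It read 333, 341, 314 and 320 units in the transgenic ovaries in the same order, and 601 units in the hCG-treated ovary. All 4 transgenic values lay below all 4 wild-type values, an order that 4.15% of all probe sets showed in one direction or the other, and the hCG-treated ovary was the highest of the 9. The log2 difference was -0.35 (SE 0.15, unadjusted p = 0.0473, adjusted p = 0.490 in limma), from 419 ± 43.6 units in wild-type to 327 ± 12.5 in transgenic ovaries (SD, n = 4 each). All 4 transgenic values were under the detection limit. Bmp4 reached it only in the 4 wild-type ovaries and in the hCG-treated one, which is outside the fit. It thus entered the test through the group where it was higher, and the call and the order of the groups are not independent of that filter. The call was lost in each of the 8 fits that leave out 1 array, where the log2 difference ran from -0.39 to -0.28.

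Bmp6, a BMP of oocytes and granulosa cells, stood at 563, 818, 488 and 494 units in wild type, in the order CF-1 at 2 and 5 months and hybrid at 2 and 5 months. It read 819, 879, 533 and 1277 units in the transgenic ovaries and 451 units in the hCG-treated one. The groups overlapped, and the hybrid luteoma was the highest and the hCG-treated ovary the lowest of the 9. The hybrid pair at 5 months differed 2.59-fold, with 1 array on each side and a wild-type value under the detection limit. The fitted genotype difference was 0.54 on the log2 scale (SE 0.24, unadjusted p = 0.0607, adjusted p = 0.540), and 0.29 without the hybrid luteoma.

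Tgfb3, one of the TGF-beta isoforms, was lower at the later age. It read 669 and 597 units in wild-type and transgenic CF-1 at 2 months and 533 and 616 in the hybrid. At 5 months it read 461 units in CF-1 wild type, 197 in the tumour, 517 in hybrid wild type and 312 in the hybrid luteoma, while the hCG-treated ovary read 541. All 4 untreated values at 5 months lay below all 4 at 2 months, and the tumour and the hybrid luteoma were under the detection limit. The age difference was -0.79 on the log2 scale (SE 0.27, unadjusted p = 0.0196, adjusted p = 0.196), and in the hybrid wild-type pair, where neither array had the control profile above, it was -0.04. The arrays of that pair are far apart in the actin ratio, at 0.36 and 0.668 on chip A and 0.337 and 0.572 on chip B, and its part in any age difference was not tested. Gdf5, a growth and differentiation factor best known from joints, stayed between 392 units in the hybrid luteoma and 727 in the tumour.

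The other ligand probe sets, for Bmp2, Bmp5, Bmp7, Bmp8a, Bmp8b, Gdf3 and Tgfb2, did not reach the limit on any array. The highest of them was Bmp7, a BMP with kidney and epithelial roles, at 463 units in the hCG-treated ovary and at most 119 elsewhere. Bmp2, a granulosa ligand, lay under the floor on every array with both its probe sets.

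**Figure D2:**
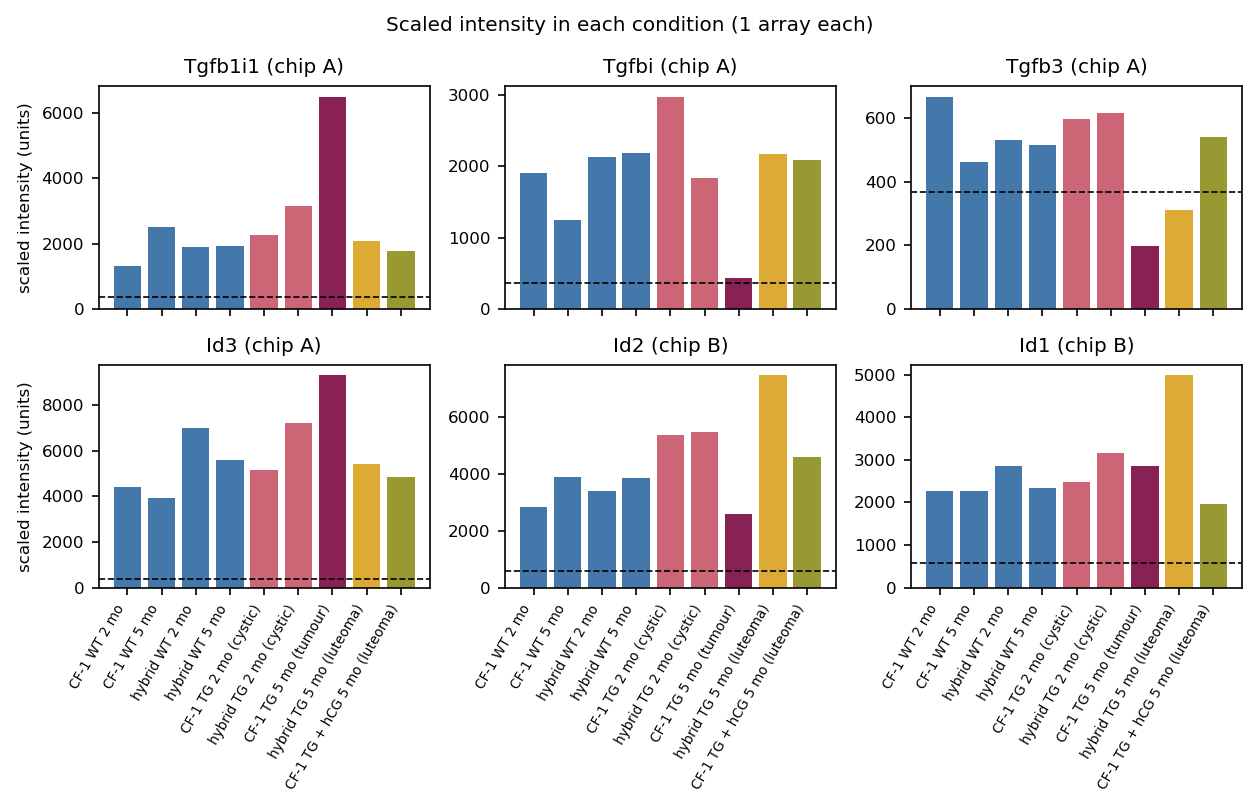
Scaled intensity of members that the results turn on, 1 panel per probe set, with 1 bar per condition (units on a linear axis from 0) and a dashed line at the detection limit of the chip. Tgfb1i1 reaches 6504 units in the tumour and Tgfbi 438, the extremes of their panels, while Id1 and Id2 peak in the hybrid luteoma at 4979 and 7457 units.

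Both Ltbp family genes with a probe set were tested. Ltbp3, which tethers latent TGF-beta in the extracellular matrix, read 2980, 3264, 2929 and 3087 units in the 4 ovaries of 2 months (CF-1 wild type and transgenic, then hybrid). At 5 months the same order gave 1924, 2417, 2110 and 1829 units, and the hCG-treated ovary read 2573. The ages did not overlap, which held in the lower direction for Ltbp3 and Tgfb3 among the 20 members, against 9.38% of all probe sets in either direction. The age difference of Ltbp3 was -0.57 on the log2 scale (SE 0.16, unadjusted p = 0.00731, adjusted p = 0.159 in limma), lower in all 4 comparisons of age, and -0.47 in the hybrid wild-type pair alone.

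Ltbp2, a matrix protein of the same family that binds fibrillin, was the single member called by strain. It read 454, 633, 643 and 524 units in CF-1 (wild type and transgenic at 2 months, then at 5 months) and 425, 373, 412 and 445 in the hybrid in that order. All 4 hybrid values lay below all 4 CF-1 values, which 3.26% of all probe sets did in either direction. The log2 difference was -0.43 (SE 0.18, unadjusted p = 0.0425, adjusted p = 0.624), a call kept in 2 of 8 fits that leave out 1 array, and the 1 of 20 members called at that unadjusted level compares with 7.88% of all probe sets. In limma's adjusted test 0 members passed for strain, against 0.0312% of all probe sets.

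Receptors were dim. Acvr2a, a type II receptor for activins and some BMPs, ranged from 344 units in the hybrid cystic ovary to 796 in the CF-1 cystic ovary with 1 probe set, and the other lay under the floor on all 9 arrays. Bmpr1a, the type I receptor ALK3, ran from 326 to 551 units, and Acvrl1, the endothelial type I receptor ALK1, from 278 to 514. None of the 3 reached an unadjusted p under 0.05 for genotype, age or strain over all 8 arrays.

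Bmpr1a was lower in the transgenic ovary of 3 of the 4 pairs, at 341 against 518 units in the tumour pair and 326 against 527 in the pair of the hybrid luteoma, and higher in the CF-1 cystic ovary, at 551 against 422. Its genotype difference was -0.34 on the log2 scale (unadjusted p = 0.154). Without the CF-1 cystic ovary it was -0.55 (unadjusted p = 0.0197), and without hybrid wild type at 5 months -0.22. Of the remaining receptor probe sets, those of Acvr1, Acvr1b, Acvr2b, Bmpr1b, Bmpr2, Tgfbr1 and Tgfbr2 were not tested. Tgfbr2, the type II TGF-beta receptor, stayed between -25 and 75 units, and Tgfbr1, its type I partner, between -16 and 264. Acvr1, the type I receptor ALK2, passed the limit on 1 array, at 386 units in the hybrid luteoma against -167 in its wild-type partner, and Bmpr1b, the type I receptor ALK6, was highest in the tumour at 390 units on chip B, under that chip's limit.

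Smad4, the shared partner of the receptor-regulated Smads, was highest in the tumour with both its probe sets. The first (U79748_s_at) read 924, 1523, 831 and 1556 units in wild-type ovaries of CF-1 at 2 and 5 months and the hybrid at 2 and 5 months. It read 1089 units in the CF-1 cystic ovary, 3450 in the tumour, 649 in the hybrid cystic ovary, 1007 in the hybrid luteoma and 1891 in the hCG-treated ovary. The tumour stood 1.82-fold above the next array and 2.26-fold above its wild-type partner, with no replicate on either side.

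The second Smad4 probe set (aa542171_at) read 2589 units in the tumour and 1159 to 1782 on the other 8 arrays, 1.45-fold above the next. The probe sets parted on age. The first averaged 873 ± 183 units at 2 months and 1884 ± 1074 at 5 months (SD, n = 4 each), a log2 difference of 0.98 (SE 0.30, unadjusted p = 0.0131, adjusted p = 0.177), higher in all 4 comparisons of age and by 0.91 in the hybrid wild-type pair. The second differed by 0.23 (unadjusted p = 0.300). The first also had an unadjusted call for genotype by strain, with a transgenic minus wild-type difference that was 1.20 lower on the log2 scale in the hybrid than in CF-1 (unadjusted p = 0.0311, adjusted p = 0.854), and for the second probe set this was 0.74 lower (unadjusted p = 0.0621).

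Smad1, which carries BMP signals, read 1161, 1201, 1328 and 960 units at 2 months (CF-1 wild type and transgenic, then hybrid) and 784, 714, 852 and 971 at 5 months in that order. The hCG-treated ovary read 966 units. The values at 5 months were lower in 3 of the 4 comparisons of age, and level in the hybrid transgenic one. The log2 difference was -0.49 (SE 0.18, unadjusted p = 0.0279, adjusted p = 0.214), and -0.64 in the hybrid wild-type pair. Smad2, which carries activin and TGF-beta signals, was the steadiest member, between 720 units in the hCG-treated ovary and 987 in CF-1 wild type at 5 months. Smad3 and Smad5, its relatives for the TGF-beta and BMP branches, lay under the floor on all 9 arrays.

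For age as a whole, 5 of the 20 members had an unadjusted p under 0.05 in limma, Ltbp3, Tgfb3, Smad1 and a Bmp1 probe set lower and a Smad4 probe set higher at 5 months. This compares with 19.5% of all probe sets, and 0 of the 20 passed the adjusted threshold against 0.0156% of all. The control profile described above covered 3 of the 4 untreated arrays of 5 months. In the hybrid wild-type pair, outside that profile, 4 of these 5 probe sets differed by 0.47 or more on the log2 scale in the fitted direction, and Tgfb3 did not. That pair is part of the fit that picked these probe sets, so some match in direction is built in. Its arrays are also far apart in the actin ratio, as given above. The part of the control profile and of that ratio in the age differences was not tested. With 1 array left out, the calls of Ltbp3, Bmp1 and Smad4 held in 8 of 8 fits. That of Tgfb3 held in 6, lost without the cystic ovary of either strain, and that of Smad1 in 2, lost in all but the fits without a hybrid transgenic ovary.

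**Figure D3:**
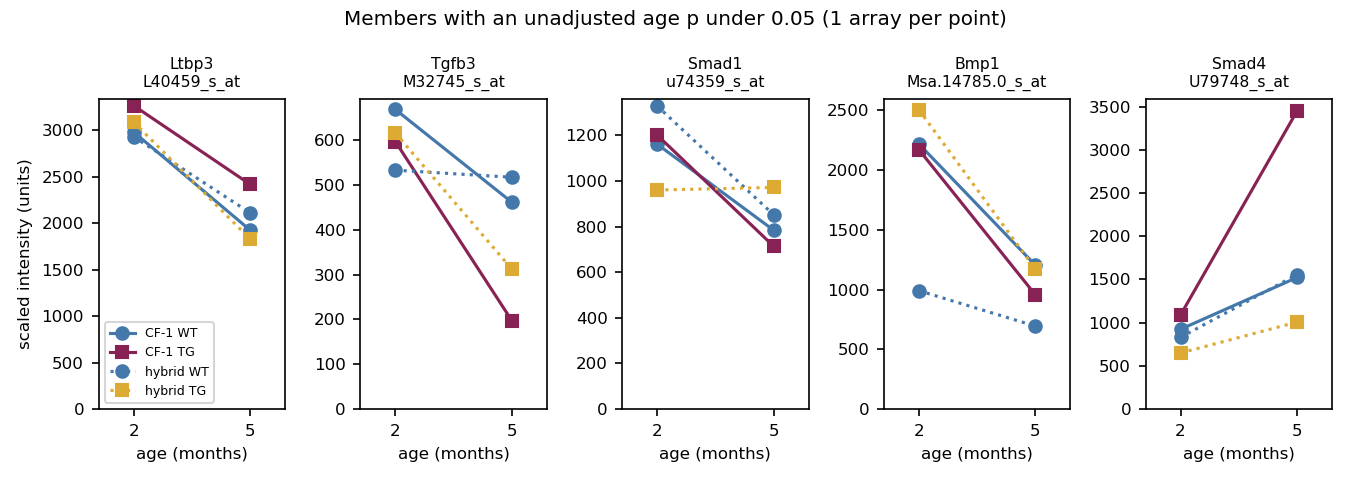
Scaled intensity (linear axis from 0, units) of the 5 probe sets with an unadjusted age p under 0.05, at 2 and 5 months, with 1 line per strain and genotype. All 4 lines slope down for Ltbp3, Tgfb3 and Bmp1 and up for Smad4, whereas the hybrid transgenic line of Smad1 is level at 960 and 971 units.

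The Id factors were highest in different lesions, each with 1 array. Id1 read 2275, 2263, 2849 and 2334 units in wild-type ovaries (CF-1 at 2 and 5 months, hybrid at 2 and 5 months). It read 2483, 2847, 3156 and 4979 in the transgenic ovaries and 1971 in the hCG-treated one. The transgenic value was above its wild-type partner in 4 of 4 pairs although the groups overlapped, and the hybrid luteoma stood 2.13-fold above its partner. The log2 difference was 0.42 (SE 0.21, unadjusted p = 0.0745, adjusted p = 0.564), 0.25 without the hybrid luteoma and 0.27 without its wild-type partner.

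Id2 read 2849, 3892, 3411 and 3859 units in wild-type ovaries in that order, and 5350, 2602, 5475 and 7457 in the transgenic ovaries. The hCG-treated ovary read 4600 units. Both cystic ovaries and the hybrid luteoma lay above every wild-type ovary, and the tumour below every one. The log2 difference for genotype was 0.49 (SE 0.29, unadjusted p = 0.133, adjusted p = 0.644), and without the tumour 0.83 (SE 0.17, unadjusted p = 0.00225, adjusted p = 0.177). It was 0.30 without the hybrid luteoma and 0.31 without the CF-1 cystic ovary.

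Id3 was highest where Id2 was lowest, in the tumour. It read 4426, 3934, 6978 and 5590 units in wild type and 5159, 9291, 7211 and 5407 in the transgenic ones, with 4855 in the hCG-treated ovary. The tumour was the highest of the 9, 1.29-fold above the next and 2.36-fold above its partner, while the hybrid luteoma was below its partner. The genotype difference was 0.37 on the log2 scale (unadjusted p = 0.215), and it ran from 0.06 without the tumour to 0.56 without the hybrid luteoma. Id4 did not reach the limit, with 84 units in the tumour and 160 to 419 elsewhere. Before flooring Id4 was lower in the transgenic ovary of all 4 pairs, but 6 of the 9 arrays were under the floor. After flooring it was lower in 3 pairs, as both values of the CF-1 pair at 5 months were under the floor. With the floor halved, where Id4 was tested, the log2 difference was -0.82 (SE 0.18, unadjusted p = 0.00252, adjusted p = 0.277 in limma). Id4 reached the limit of that setting only in wild-type ovaries, the group where it was higher. This p-value therefore adds no support for lower Id4 in transgenic ovaries. The chip A probe sets of Id1 and Id2 did not exceed 195 and 104 units, so that Id1 and Id2 rest on 1 readable probe set each.

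In the hybrid luteoma the summed endothelial markers, a list that includes Eng, were also at their highest, at 22444 units against 8289 to 16160 on the other 8 arrays. Eng alone gave 11920 of these units. Kdr, a vascular endothelial growth factor receptor, read 3357 units there and 922 to 1990 elsewhere, while Emcn, also on the list, was under the floor in the hybrid luteoma and in the tumour. The part of endothelial cells in the Id1, Id2 and Bmp6 levels was not tested.

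**Figure D4:**
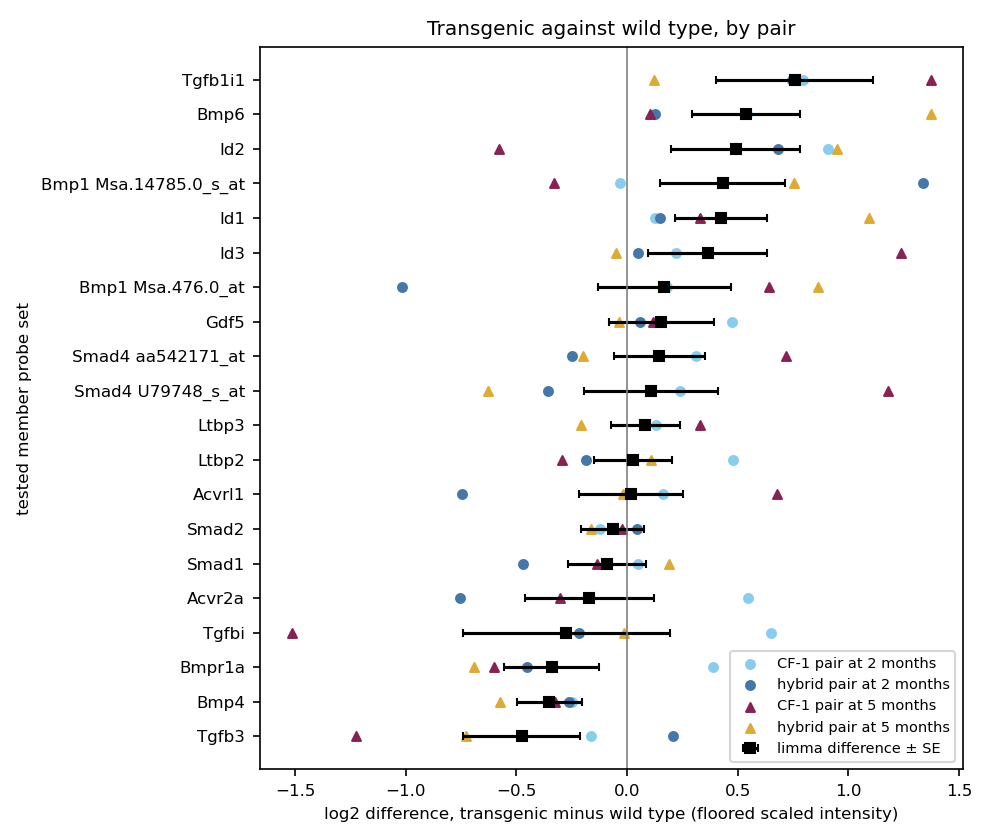
Transgenic minus wild-type log2 difference of each tested probe set, as points for the 4 pairs and as the fitted limma difference with 1 SE on either side (black squares and bars, x axis in log2 units). The fitted values run from -0.48 for Tgfb3 to 0.76 for Tgfb1i1, and the 4 Bmp4 points lie closest together among the members on 1 side of 0 in all pairs.

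The remaining symbols name proteins that act at the edge of the system. Tgfb1i1, the focal adhesion LIM protein Hic-5, first found as induced by TGF-beta, read 1306, 2513, 1889 and 1911 units in wild-type ovaries (CF-1 at 2 and 5 months, hybrid at 2 and 5 months). It read 2265, 6504, 3162 and 2078 in the transgenic ovaries and 1762 in the hCG-treated one. The transgenic value was above its partner in 4 of 4 pairs, by 1.73, 2.59, 1.67 and 1.09-fold, and the tumour stood 2.06-fold above the next array. The fitted difference was 0.76 on the log2 scale (SE 0.35, unadjusted p = 0.0682, adjusted p = 0.555), 0.41 without the tumour and 1.11 without the hybrid luteoma. Summed smooth muscle markers, from a cell type in which this gene is active, read 18336 units in the tumour. On the other arrays they ran from 18175, in the hCG-treated ovary, to 38975. The part of smooth muscle in the Tgfb1i1 level was not tested.

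Tgfbi, a secreted matrix protein induced by TGF-beta, read 1900, 1254, 2133 and 2193 units in wild type and 2979, 438, 1837 and 2174 in the transgenic ovaries in that order. The hCG-treated ovary read 2086 units. The tumour was the lowest of the 9, 2.86-fold below CF-1 wild type at 5 months, the next lowest, and the CF-1 cystic ovary was the highest. The fitted genotype difference of -0.27 (unadjusted p = 0.574) turned to 0.26 without the tumour. Summed fibroblast markers read 32654 units in the tumour against 31225 to 45406 elsewhere, within the range of the other arrays, and summed macrophage markers 32609 against 26484 to 73397. Other summed lists were lower in the tumour than on any other array, at 18765 units against 37673 to 105231 for theca and interstitial genes, 1674 against 10909 to 30294 for epithelium and oviduct, 12742 against 17395 to 34630 for luteal genes and 1177 against 1826 to 8680 for fat. The part of these cell types in the low Tgfbi level was not tested.

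Bmp1 encodes a procollagen proteinase and, despite its name, no BMP ligand, and its probe sets disagreed. The brighter averaged 1971 ± 670 units at 2 months and 1006 ± 235 at 5 months (SD, n = 4 each), lower in all 4 comparisons of age, a log2 difference of -0.92 (SE 0.28, unadjusted p = 0.0123, adjusted p = 0.175). The dimmer was higher at 5 months in 3 of 4 comparisons, by 0.58 on the log2 scale (unadjusted p = 0.092). In the hybrid pair at 2 months the brighter read 2504 units in the transgenic and 990 in the wild-type ovary, and the dimmer 356 and 721. Each had an unadjusted interaction call, the dimmer for genotype by age (difference 1.17, unadjusted p = 0.0418) and the brighter for genotype by strain (difference 1.23, unadjusted p = 0.0157, adjusted p = 0.854), so that no direction can be given for the gene.

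Of the interactions with genotype, 1 member was called at an unadjusted p under 0.05 for age, against 2.76% of all probe sets, and 2 for strain, against 5.43%. In limma's adjusted test 0 members and 0.0% of all probe sets passed for either. A genotype difference in 1 strain or age and not the other is therefore not shown for any member.

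In the granulosa cell tumour, no member stood 3-fold above or below every other array, a size that 0.89% of all probe sets reached. At 2-fold there were 2, Tgfb1i1 above and Tgfbi below, against 2.59%. Without CF-1 wild type at 5 months, Tgfbi passed 3-fold. By order alone the tumour was the highest array for 6 of the 20 members (both Smad4 probe sets, Id3, Tgfb1i1, Gdf5 and 1 Bmp1 probe set), against 21.0% of all probe sets, and the lowest for 3 (Tgfbi, Id2 and Smad1), against 14.8%. The hybrid luteoma was the highest for 3 (Bmp6, Id1 and Id2), against 10.7%.

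Pair by pair, 0 of the 20 members differed 3-fold between transgenic and wild type. The background was 1.23% in CF-1 at 2 months, 4.42% in CF-1 at 5 months, 2.23% and 3.84% in the hybrid at those ages, and 3.64% for the hCG-treated ovary against CF-1 wild type of 5 months. At 2-fold the tumour pair had 5 members, with Id3, a Smad4 probe set and Tgfb1i1 higher and Tgfb3 and Tgfbi lower, against 12.1% of all probe sets. The hybrid luteoma pair had 2, Bmp6 and Id1 higher, against 14.8%. The CF-1 cystic pair had 0 against 5.74%, although 16 of the 20 members were higher in the transgenic ovary there against 51.1%. The hybrid cystic pair had the 2 Bmp1 probe sets, in opposite directions, against 8.79%, and the hCG-treated ovary had 0 against 14.4%. The tumour and the hCG-treated ovary share their wild-type control.

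By the size rule the luteomas shared no member. None lay 2-fold beyond the other 7 arrays in both, against 0.078% of all probe sets. Set against the tumour, the hybrid luteoma differed 3-fold in 3 members (Tgfbi higher, a Smad4 probe set and Tgfb1i1 lower; 5.48%), and the hCG-treated ovary in 2 (Tgfbi higher, Tgfb1i1 lower; 9.0%). Tgfbi was 4.96-fold and 4.76-fold above the tumour in these. The hybrid luteoma and the hCG-treated ovary differed 3-fold in 0 members (4.31%), and 2-fold in Bmp6 and Id1, at 2.83-fold and 2.53-fold (14.3%), the dimmer Bmp6 value being under the limit.

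Genes of the pathway with other names gave context, from a list of 73 fixed by symbol, of which 41 were on the chips and 28, with 32 probe sets, were tested. For genotype 0 of the 32 passed limma's adjusted threshold. At an unadjusted p under 0.05, 5 probe sets were higher in transgenic ovaries, for Furin, Fkbp1a with both its probe sets, Tgif2 and Ccn2, and 2 were lower, for Postn and Tagln, which is 7 of 32 against the 10.0% above. Furin, the protease that cuts TGF-beta family precursors, read 1188, 1592, 1507 and 1096 units in wild type and 2544, 1684, 2477 and 1821 in their transgenic partners. It was higher in 4 of 4 pairs, by 0.66 on the log2 scale (unadjusted p = 0.014).

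Fkbp1a, the immunophilin that holds type I receptors silent, was higher by 0.44 and 0.42 with its 2 probe sets, which have the suffix for probes shared within a gene family. For age 0 of the 32 were higher and 2 lower, Amh and Postn, against 19.5% of all probe sets. For strain 2 were higher in the hybrid, Nbl1 and Tagln, and 2 lower, for Ski and Tgif2, against 7.88%.

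Activin subunits differed between the lesions, with 1 array each. Inhba, the beta A subunit of activin and inhibin, read 12028 units in the tumour and 1562 to 5891 elsewhere. Inhbb, the beta B subunit, read 4839 and 5454 units in wild type at 2 months and 1190 and 1331 in the cystic ovaries beside them, 10279 in the tumour and 711 in the hybrid luteoma. These 2 genes are also in the granulosa marker list. Eng, a co-receptor of endothelial cells for TGF-beta and BMP9, was highest in the hybrid luteoma at 11920 units, against 3315 in its wild-type partner. Of the list, Thbs1, an activator of latent TGF-beta, and Ccn2, a matrix protein induced by TGF-beta, stood 3-fold above every other array in the tumour, and 0 stood 3-fold below, which is 2 of the 32 probe sets against 0.89% of all.

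Tgif1, a repressor that binds Smads, was also highest in the tumour, at 3690 units against 1138 to 1742 elsewhere. Timp1, a metalloproteinase inhibitor, was lowest there, at 2618 units against 7461 to 18704. These single-array differences have no replicate check.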

How the data were processed

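Each array has 1 deposited intensity per probe set, on a linear scale, some below 0. The sources used here do not say how the authors computed the intensity values. Arrays were scaled within chip type to a common trimmed mean (2nd to 98th percentile). Values were raised to a floor (183.8 units for chip A, 290.7 for chip B) and taken to log2. For each array the 25th percentile and the size of the 5th were compared, and the median of the higher of them across arrays became the floor. On each chip 76 control or shared probe sets were left out, and 6408 were tested, with values at or above 2 floors on at least 2 arrays.

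Genotype, age and strain were fitted additively with limma 3.58.1 in R 4.3.3 to the 8 untreated arrays of a chip type (4 residual degrees of freedom, 3 with an interaction), with Benjamini-Hochberg adjustment over both chips and a threshold of 0.05. The fit was tested on simulated data. Single arrays were compared by size, with no test. The precision is limited by 1 array per condition.

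Symbols come from the platform annotation supplied, updated through gene models of GRCm38.p6. Members named in full had an unadjusted p under 0.05, met a size rule, or were the brightest or widest-ranging of their role; others were chosen after their values were seen. The members and lists were chosen with earlier results of these data known. Of the marker lists fixed by symbol, the ones not given beside a result read, in the tumour and over the other 8 arrays, 5415 and 3451 to 7577 units for lymphocytes and 28205 and 23042 to 81305 for erythroid genes.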

Additional observations from a re-analysis of the deposited data

How the results depend on the processing

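Values were recomputed under other floors, scalings, filters, thresholds, variance models, the pair as a block or with an array left out. Of 380 such values, 360 kept their direction, for log2 differences, or stayed within 1.5 times the count, for counts. Part of this was fixed in advance. No member tested in the main setting was under the floor on any array. A halved floor, another filter, another variance model or the pair as a block therefore leaves its log2 difference unchanged. The 360 of 380 is thus no measure of robustness. For log2 differences the side of an unadjusted p of 0.05 was not part of this rule, and Bmp4 for genotype crossed it in several settings. The counts of members past the adjusted threshold were 0 in every setting for genotype, age and strain. Of all probe sets at most 8 passed in a setting, with 1 exception. Without the hybrid wild type of 5 months, 254 of 6408 passed for age, against 1 in the main fit. That array is the only untreated one of 5 months outside the control profile, so the age count over all probe sets depended on it. The reason was not tested. The unadjusted count for genotype, 1 of 20, became 0 of 11 with the floor doubled, against 466 of 4616 probe sets. It was 0 of 20 with quantile normalization, against 619 of 6438. With the filter of all 9 arrays at the limit it was 0 of 13, against 400 of 4236. With an array left out it ran from 0 to 2 of 20, against 383 to 659 of 6408. For age the count of 5 of 20 ran from 3 to 6 of 20 with an array left out. The 3, without the CF-1 cystic ovary, stood against 713 of 6408 probe sets. The 6, without the hybrid luteoma, stood against 1005 of 6408. With the floor halved it was 7 of 26, against 1421 of 8147. For strain the count of 1 of 20 became 0 of 11 with the floor doubled, against 402 of 4616. It became 2 of 13 with the filter of all 9 arrays, against 357 of 4236. With an array left out it ran from 0 to 2 of 20, against 328 to 499 of 6408. At 2-fold the counts of 0 became 2 for the tumour, 5 for the CF-1 pair of 5 months, and 2 for either hybrid pair, and that of the hybrid pair of 5 months became 1, Acvr1, with the floor halved. In an alternative added after seeing the data, the tumour count ran from 0 to 1 with another array left out, the 1 being Tgfbi without CF-1 wild type of 5 months. The genotype difference of Tgfbi, -0.27, ran from -0.73 without the CF-1 cystic ovary to 0.26, a reversal, without the tumour, the arrays that hold its highest and lowest values. The unadjusted genotype call was Tgfb1i1 in place of Bmp4 with scaling to a common median and with trended, robust variances. With the floor halved it was Id4, which was then also the strain call in place of Ltbp2 (log2 difference 0.59, unadjusted p = 0.0134). Id4 passed the filter of that setting only through wild-type ovaries. Other causes were not tested. The labels give no replicate numbers, so arrays could be paired only by strain and age. Each such pair was then taken as a block in limma (3 residual degrees of freedom, added after seeing the data). There 1 of 20 members had an unadjusted genotype p under 0.05, against 9.72% of all probe sets. It was Tgfb1i1 (unadjusted p = 0.0148, adjusted p = 0.393), and Bmp4 was not called (unadjusted p = 0.0634). Members near the floor have log2 differences that the floor can understate.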
